A study of Mus musculus with 18 samples.

Results

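The 10 genes described here are mouse integrin subunits that take part in binding laminin or ligands with an RGD (arginine-glycine-aspartate) site, such as fibronectin. They are Itga3, Itga5, Itga6, Itga7, Itga8, Itgav, Itgb3, Itgb4, Itgb5 and Itgb6. They were chosen by name, with no measured value in the rule, though earlier results of these data were known at the choice. The members are 10 of the 47643 genes in the deposited count table. RNA was sequenced from MPC3, a mouse prostate cancer cell line, in 3 groups of 6 libraries: a control group titled plko, and cells with the short hairpin shRNF185.1 or shRNF185.3 against Rnf185, a ubiquitin ligase of the endoplasmic reticulum membrane. All groups are the same cell line, so the results are those of a single line in culture, and the labels do not say whether a group was a clone or a pool of cells. The labels place replicates 1 and 2 of every group in batch 1, replicates 3 and 4 in batch 2, and replicates 5 and 6 in batch 3. They do not say that the libraries of a group came from separate cultures, so the p-values measure only the spread between these libraries, which may be technical. All counts and levels here come from the authors' counts, already adjusted for batch with ComBat-Seq, per the file names. The main fit had no batch covariate, so that spread is the one left after the adjustment.

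Integrins are receptors that join the matrix outside the cell to the actin or keratin filaments inside it. Each receptor is a pair of an alpha and a beta subunit, and the pair decides the ligand. The alpha subunits of Itga3, Itga6 and Itga7 pair with the beta subunit of Itgb1 to bind laminins, the main adhesive proteins of basement membranes, and that of Itga6 also pairs with that of Itgb4 in hemidesmosomes, the junctions that tie epithelial cells to the basement membrane. The alpha subunits of Itga5 and Itga8 pair with that of Itgb1 to bind RGD ligands, and that of Itgav pairs with those of Itgb1, Itgb3, Itgb5, Itgb6 or Itgb8. In the prostate, laminin receptors are known from the basal epithelial layer, which is lost in many tumours.

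The hairpins moved the laminin and RGD receptor subunits in different directions, and some members differed between the hairpins. Itga5 rose with both hairpins, Itga6 and Itgb4 fell with both, and Itga3, the most abundant member per length, did not pass the test with either. Itgav fell with shRNF185.1 and rose with shRNF185.3. Itgb5 rose and Itgb3 fell with shRNF185.1, and neither passed the test with shRNF185.3. Of the 9 members with enough counts to be tested, 2 rose and 4 fell with shRNF185.1, where 28.9% of all 14309 genes tested were called (14.6% higher, 14.3% lower). With shRNF185.3, 2 rose and 2 fell, beside 27.3% of all genes (14.2% higher, 13.1% lower). The threshold was an adjusted p of 0.05 in edgeR's quasi-likelihood test, and the same 6 control libraries serve both comparisons. For the mean of both hairpins 2 members rose and 2 fell, beside 32.9% of all genes (16.1% higher, 16.8% lower). The median log2 fold change of the tested members was -0.04 with shRNF185.1 and 0.06 with shRNF185.3, beside -0.02 and -0.02 over all genes tested.

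Of the 10 members, 6 had a window around a transcription start in the RefSeq table for GRCm38.p6 (Itga3, Itga5, Itga8, Itgav, Itgb5 and Itgb6). The windows of Itga5, Itgav and Itgb5 are shown because these 3 genes moved with a hairpin and are the members with a window that were called. Each runs from 250 bases before to 50 bases after the start, 5′ to 3′ on the gene's own strand, at chr15:103366742-103367041 on the minus strand for Itga5, chr2:83724147-83724446 on the plus strand for Itgav and chr16:33829415-33829714 on the plus strand for Itgb5. Capitals mark the GC box, the letters GGGCGG or their reverse complement CCGCCC, to which factors of the Sp family are known to bind.

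Itga5: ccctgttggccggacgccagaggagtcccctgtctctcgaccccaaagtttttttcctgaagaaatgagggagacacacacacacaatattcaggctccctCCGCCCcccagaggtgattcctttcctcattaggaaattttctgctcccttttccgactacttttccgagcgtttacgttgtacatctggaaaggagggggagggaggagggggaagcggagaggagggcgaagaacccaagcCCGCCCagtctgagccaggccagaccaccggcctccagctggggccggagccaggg
Itgav: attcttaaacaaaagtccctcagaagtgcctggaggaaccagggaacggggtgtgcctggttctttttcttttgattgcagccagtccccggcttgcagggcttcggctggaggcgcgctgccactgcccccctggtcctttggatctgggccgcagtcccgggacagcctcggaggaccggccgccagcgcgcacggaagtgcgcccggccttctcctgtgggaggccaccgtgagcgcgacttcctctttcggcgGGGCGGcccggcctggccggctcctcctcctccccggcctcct
Itgb5: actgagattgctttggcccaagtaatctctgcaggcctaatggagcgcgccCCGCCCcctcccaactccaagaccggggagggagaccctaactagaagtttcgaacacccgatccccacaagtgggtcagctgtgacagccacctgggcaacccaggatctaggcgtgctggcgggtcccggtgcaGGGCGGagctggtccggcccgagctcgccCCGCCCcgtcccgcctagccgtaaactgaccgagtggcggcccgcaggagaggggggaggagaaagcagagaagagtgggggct

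The Itga5 window held 2 GC boxes, that of Itgav 1 and that of Itgb5 3, and 35.9% of all 32544 windows in the table held at least 1. GC content was 58.7% in the Itga5 window, 67.3% in that of Itgav and 65.7% in that of Itgb5, beside a median of 53.0% over all windows. Both strands were also searched for the AP-1 motif TGANTCA, which occurred in 7.8% of all windows, for the CCAAT box, in 37.4%, for the TATA box, spelled TATAAA, in 13.6%, and for the CArG box, in 1.6%. None of these was found in the windows of Itga5, Itgav or Itgb5, so that no GC box there overlapped another searched motif. Itga3, which was not called with either hairpin, also had GC boxes in its windows, 1 and 3, and the windows of Itga8 and Itgb6 had none. Itgav fell and Itga5 and Itgb5 rose with shRNF185.1. Any part of the GC box in these changes was not tested.

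Library totals ran from 22.0 to 43.4 M counts, so that a floor of 3 counts lies between 0.0701 and 0.133 CPM (counts per M counts), for counting error only. Levels are given on the scale of the authors' CPM, the count scaled to the library's effective size. The authors' CPM covers 15386 genes, each with at least 90 counts in all. Genes outside it, such as Itga8, were scaled here by the same effective sizes. Rnf185 averaged 5.81 CPM for shRNF185.1 and 5.80 CPM for shRNF185.3 against 35.9 CPM in control, and all hairpin libraries lay below all control libraries. Among 11 markers of prostate epithelium fixed for this check, Krt8 (1197 CPM) and Krt18 (354 CPM) were high in control cells, but Epcam averaged 0.125 CPM and the secretory gene Pbsn was at 0 in every library. Vim, a mesenchymal filament, averaged 3201 CPM in control. The cells therefore held keratin and vimentin RNA together, with Epcam, an epithelial adhesion gene, and Pbsn, a prostate secretory gene, at or near 0.

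The markers of cell state moved with the hairpins. The summed level of the 11 epithelial markers was 1794 to 2647 CPM in control, 1115 to 1893 CPM for shRNF185.1 and 1265 to 1489 CPM for shRNF185.3. Of the 7 epithelial markers tested, 3 fell and 2 rose with shRNF185.1, and 3 fell and 1 rose with shRNF185.3. Over all genes tested, 14.3% and 13.1% fell and 14.6% and 14.2% rose with shRNF185.1 and shRNF185.3. Cdh1, which encodes E-cadherin, averaged 35.0 CPM in control, 9.29 CPM for shRNF185.1 and 7.99 CPM for shRNF185.3. The 12 mesenchymal markers summed to 3213 to 4232 CPM in control, 3890 to 4476 CPM for shRNF185.1 and 4042 to 4670 CPM for shRNF185.3, and 5 and 9 of the 11 tested rose while 0 fell. Their part in the integrin results was not tested, and in bulk RNA fewer cells of a type and less RNA per cell cannot be told apart. Endothelial markers summed to at most 0.826 CPM and skeletal muscle markers to at most 1.11 CPM in any library, with Myod1 and Myog at 0 throughout. Immune markers summed to 1.78 to 5.08 CPM, and only Cd68 was high enough to be tested. Of 15 interferon-stimulated genes, 13 rose with each hairpin, and their part in the integrin results was not tested either.

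**Figure D1:**
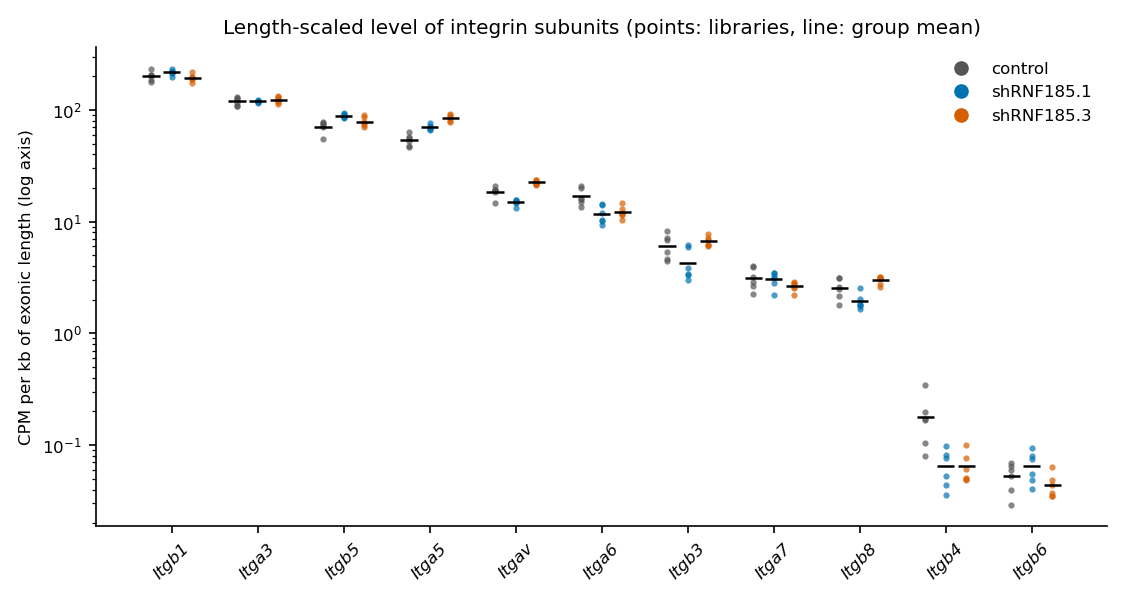
Level of the tested members, and of the beta subunits Itgb1 and Itgb8, in CPM per kilobase of exonic length on a log axis, with a point for each of the 6 libraries of a group and a line for the group mean. In control the means fall from 202 CPM per kilobase in Itgb1 to 0.0528 in Itgb6, and Itga5 passes Itgb5 only in shRNF185.3.

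Levels of different genes were compared only after division by exonic length. In control cells the order began with the shared partner Itgb1 at 202 ± 18.8 CPM per kilobase (SD, n = 6), followed by Itga3 at 119 ± 10.1. Itgb5 at 71.0 ± 8.58 and Itga5 at 53.8 ± 6.51 came next, and their libraries overlapped. Itgav at 18.6 ± 2.08 and Itga6 at 16.9 ± 2.91 CPM per kilobase also overlapped. Itgb3 stood at 6.09 ± 1.53 and Itga7 at 3.15 ± 0.700, the latter overlapping Itgb8 at 2.56 ± 0.530 CPM per kilobase. Itgb4 at 0.177 ± 0.0920, Itgb6 at 0.0528 ± 0.0156 and Itga8 at 0.0101 ± 0.00672 CPM per kilobase closed the order. The level of Itga5 per length passed that of Itgb5 with shRNF185.3, at 84.9 ± 5.75 against 78.6 ± 7.57 CPM per kilobase, with overlapping libraries. With shRNF185.1, Itgb6 at 0.0655 ± 0.0209 and Itgb4 at 0.0649 ± 0.0242 CPM per kilobase overlapped.

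**Figure D2:**
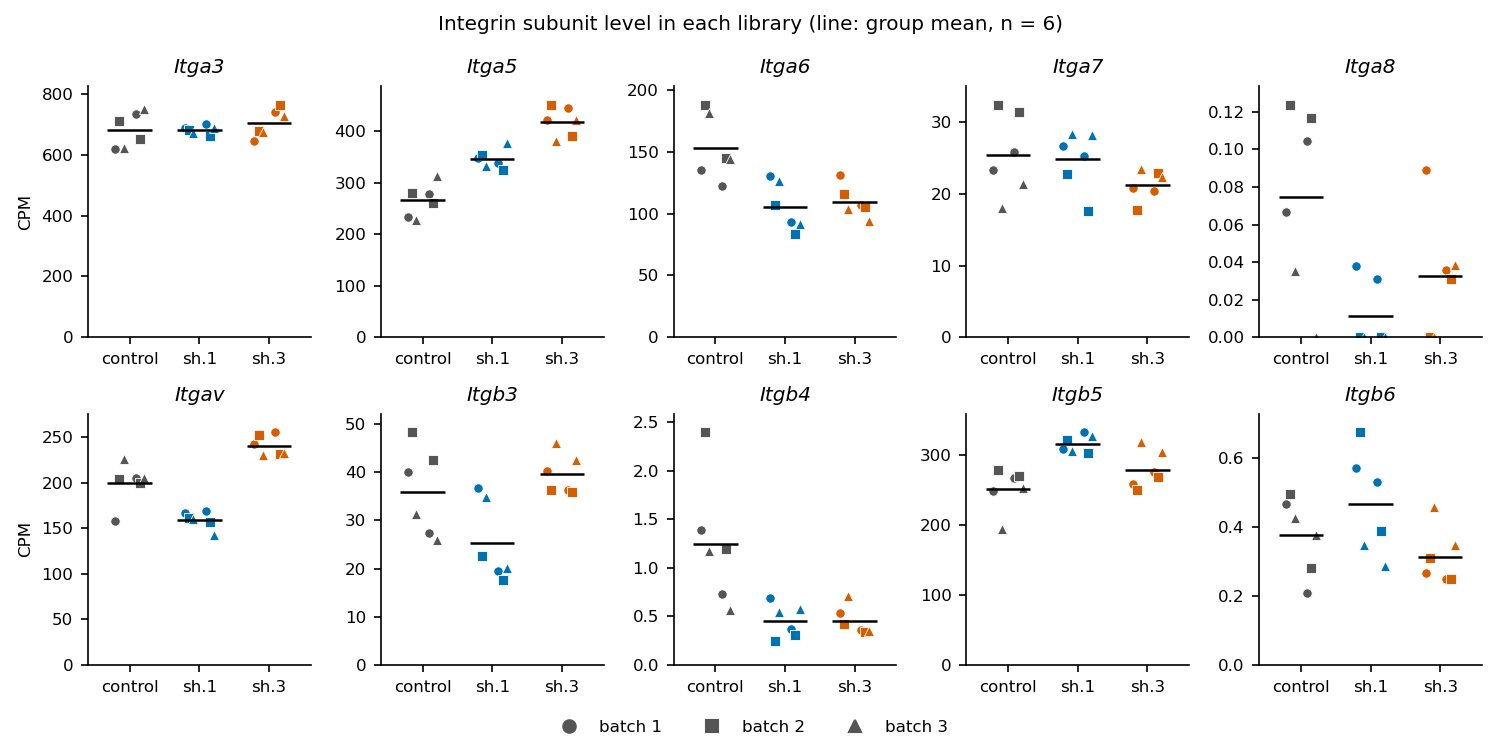
Level of each member in every library, in CPM on a linear axis per gene, with the 3 groups side by side (sh.1 and sh.3 for the hairpins), the batch of each library by marker and the group mean as a line. For Itga5 the 3 groups do not overlap, and for Itga3 and Itga7 they do.

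Itga3, the alpha subunit of the main epithelial laminin receptor, sits on the minus strand of chromosome 11 of GRCm38, from 95044474 to 95076801, with 5710 exonic bases. Its level in control ran from 619 CPM through a median of 681 to 751 CPM. With shRNF185.1 the lowest, median and highest libraries were 661, 686 and 704 CPM, and with shRNF185.3 they were 647, 705 and 766 CPM. The hairpin libraries lay within the control range, except 1 with shRNF185.3 that lay above it. edgeR gave a log2 fold change of 0.00 with shRNF185.1 (95% interval -0.11 to 0.12, edgeR adjusted p = 0.975) and 0.06 with shRNF185.3 (-0.06 to 0.17, adjusted p = 0.486). These intervals hold changes of no more than 0.17 on the log2 scale in either direction.

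Itga6, the laminin alpha subunit of basal epithelium and hemidesmosomes, sits on the plus strand of chromosome 2, from 71745616 to 71858416, with 9025 exonic bases. Of its 75-base exonic windows, 4.46% also occur in 8 other genes, so a small part of its counts could be split with them. In control the lowest, median and highest libraries held 123, 145 and 188 CPM. With shRNF185.1 they held 83.9, 100 and 130 CPM, and with shRNF185.3 94.1, 106 and 131 CPM. Most hairpin libraries, 4 with shRNF185.1 and 5 with shRNF185.3, were below the lowest control library, and the groups overlapped at their edges. In log2 fold change this was -0.54 ± 0.121 with shRNF185.1 (SE, edgeR adjusted p = 0.00237) and -0.48 ± 0.121 with shRNF185.3 (adjusted p = 0.00611). Within batches 1, 2 and 3 it was -0.22, -0.81 and -0.59 for shRNF185.1 and -0.12, -0.58 and -0.71 for shRNF185.3. Without batch 3, the change with shRNF185.3 was -0.36 and its call ended (edgeR adjusted p = 0.114, from 0.000963 to 0.114 over the alternatives).

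Itgb4, the beta subunit that ties laminin receptors to keratin through plectin, sits on the plus strand of chromosome 11, from 115974709 to 116008412. It was a low-level gene here, with 18 to 58 counts in the control libraries, 7 to 18 with shRNF185.1 and 9 to 17 with shRNF185.3. Its lowest, median and highest levels were 0.565, 1.18 and 2.40 CPM in control, 0.248, 0.457 and 0.685 CPM for shRNF185.1, and 0.342, 0.391 and 0.706 CPM for shRNF185.3. Of the hairpin libraries, 4 with shRNF185.1 and 5 with shRNF185.3 lay below the lowest control. Against control the log2 fold change came to -1.44 ± 0.321 with shRNF185.1 (SE, edgeR adjusted p = 0.00223) and -1.45 ± 0.323 with shRNF185.3 (adjusted p = 0.0024). Within batches 1, 2 and 3 it was -0.90, -2.34 and -0.50 for shRNF185.1 and -1.09, -1.96 and -0.64 for shRNF185.3. The filter on low counts asks for 0.368 CPM in 6 libraries, which all 6 control libraries met, 4 with shRNF185.1 and 3 with shRNF185.3. Without batch 2, the change with shRNF185.1 was -0.83 and the call ended (edgeR adjusted p = 0.062, from 0.000427 to 0.062 over the alternatives). On log2 of CPM plus 1 with limma, which compresses low levels, the change was -0.59 with each hairpin. A gene on the opposite strand, B230344G16Rik, overlaps 7.66% of the exons of Itgb4 and held 0 to 2 counts per library.

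Itga7, the laminin alpha subunit best known from muscle, sits on the plus strand of chromosome 10, from 128933818 to 128958282, with 8092 exonic bases. Control libraries ran from 18.1 through a median of 24.6 to 32.5 CPM. Libraries with shRNF185.1 ran from 17.7 through 26.0 to 28.3 CPM and those with shRNF185.3 from 17.7 through 21.7 to 23.5 CPM. The groups overlapped and neither hairpin passed the test: -0.04 with shRNF185.1 (95% interval -0.32 to 0.24, edgeR adjusted p = 0.86) and -0.25 with shRNF185.3 (-0.53 to 0.03, adjusted p = 0.171). Its change differed between the batches, at 0.08, -0.67 and 0.52 with shRNF185.1 and at -0.25, -0.66 and 0.22 with shRNF185.3 in batches 1, 2 and 3. The edgeR test of the group by batch interaction gave an adjusted p of 0.0108 for Itga7, the only member called, beside 9.81% of all 14309 genes. Without batch 2 the change with shRNF185.1 was 0.29 and called (edgeR adjusted p = 0.031, up to 0.955 over the alternatives), and without batch 3 that with shRNF185.3 was -0.46 and called (adjusted p = 0.0328, up to 0.857). Skeletal muscle markers were at or near 0, as given above.

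Itga5, the alpha subunit of the main fibronectin receptor, sits on the minus strand of chromosome 15, from 103344286 to 103366763, with 4933 exonic bases and the promoter window printed above. In control its lowest, median and highest libraries held 228, 270 and 314 CPM. With shRNF185.1 they held 326, 343 and 377 CPM, and with shRNF185.3 381, 422 and 452 CPM. Every hairpin library, 6 of 6 for each hairpin, was higher than all control libraries, and all 6 with shRNF185.3 were above the highest with shRNF185.1. The same held for 7.02% of all genes tested in shRNF185.1 against control, 7.60% in shRNF185.3 against control and 4.45% in shRNF185.3 against shRNF185.1. The fitted log2 change came to 0.38 ± 0.070 with shRNF185.1 (SE, edgeR adjusted p = 0.000391) and 0.66 ± 0.070 with shRNF185.3 (adjusted p = 1.21e-06). Within batches 1, 2 and 3 it was 0.43, 0.33 and 0.41 for shRNF185.1 and 0.77, 0.64 and 0.58 for shRNF185.3. The hairpins differed by 0.28 ± 0.069 (edgeR adjusted p = 0.00941), a call that ended without batch 1 (0.25, adjusted p = 0.171) and without batch 2 (0.26, adjusted p = 0.13), over a range from 0.00143 to 0.171.

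Itgav, the alpha subunit shared by the RGD receptors of vitronectin, fibronectin and latent TGF-beta, sits on the plus strand of chromosome 2, from 83724397 to 83806916, with 10744 exonic bases. In control its lowest, median and highest libraries held 158, 205 and 226 CPM. With shRNF185.1 they held 142, 161 and 169 CPM, and with shRNF185.3 230, 238 and 256 CPM. Libraries with shRNF185.3 all lay above the highest control library and above the highest with shRNF185.1. Such a rise without overlap held for 7.60% of all genes tested against control and 4.45% against shRNF185.1. With shRNF185.1, 2 libraries lay below the lowest control. Fitted over all libraries, the log2 fold change was -0.33 ± 0.066 with shRNF185.1 (SE, edgeR adjusted p = 0.000948) and 0.27 ± 0.066 with shRNF185.3 (adjusted p = 0.00424). For the mean of both hairpins it was -0.03 (edgeR adjusted p = 0.756). The hairpins themselves differed by 0.60 ± 0.066 (edgeR adjusted p = 4.24e-06), from 0.59 to 0.61 over the alternatives. Within batches 1, 2 and 3 the change was -0.10, -0.35 and -0.51 for shRNF185.1 and 0.47, 0.26 and 0.11 for shRNF185.3. The rise with shRNF185.3 lost its call without batch 1 (0.18, edgeR adjusted p = 0.0693) and without batch 2 (0.27, adjusted p = 0.0518), over a range from 0.000439 to 0.0693. Gm13684 on the opposite strand overlaps 5.9% of its exons and held 0 to 6 counts per library.

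Itgb3, the beta subunit of a vitronectin receptor, sits on the plus strand of chromosome 11, from 104608000 to 104670476, with 5901 exonic bases. Control libraries ran from 26.0 through a median of 35.7 to 48.2 CPM. With shRNF185.1 they ran from 17.7 through 21.5 to 36.6 CPM, and with shRNF185.3 from 35.9 through 38.3 to 46.1 CPM. Of the libraries with shRNF185.1, 4 lay below the lowest control, and those with shRNF185.3 lay among the control libraries. On the log2 scale the change was -0.51 ± 0.183 with shRNF185.1 (SE, edgeR adjusted p = 0.0439) and 0.14 with shRNF185.3 (95% interval -0.24 to 0.52, adjusted p = 0.604), and the hairpins differed by 0.65 ± 0.184 (adjusted p = 0.0213). Within batches 1, 2 and 3 the change was -0.30, -1.18 and -0.10 for shRNF185.1 and 0.21, -0.32 and 0.63 for shRNF185.3. The fall with shRNF185.1 is a borderline call: without batch 2 it was -0.16 (edgeR adjusted p = 0.553, from 0.015 to 0.553 over the alternatives), without batch 1 it was -0.63 (adjusted p = 0.0717), and without control replicate 1 it was -0.48 (adjusted p = 0.082). Its call also ended with library size alone as the scale, with no filter, with batch as a covariate and with libraries summed per batch. The difference between the hairpins lost its call without any 1 of the batches, at 0.76, 0.57 and 0.63 without batch 1, 2 and 3 (edgeR adjusted p = 0.0712, 0.101 and 0.0698, from 0.00435 to 0.101 over the alternatives).

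Itgb5, another beta partner of the Itgav subunit, sits on the plus strand of chromosome 16, from 33829665 to 33949338, with 3553 exonic bases. In control its lowest, median and highest libraries held 194, 260 and 279 CPM. With shRNF185.1 they held 302, 315 and 332 CPM, and with shRNF185.3 250, 272 and 319 CPM. All 6 libraries with shRNF185.1 lay above the highest control, which held for 7.02% of all genes tested. Those with shRNF185.3 overlapped both other groups. The log2 fold change amounted to 0.33 ± 0.076 with shRNF185.1 (SE, edgeR adjusted p = 0.0029) and 0.15 with shRNF185.3 (95% interval -0.01 to 0.31, adjusted p = 0.152). Within batches 1, 2 and 3 it was 0.31, 0.18 and 0.52 for shRNF185.1 and 0.05, -0.08 and 0.49 for shRNF185.3. Without batch 1, the rise with shRNF185.1 was 0.33 and just missed the threshold (edgeR adjusted p = 0.0575, from 0.000221 to 0.0575 over the alternatives). The value with shRNF185.3 was 0.08 without control replicate 5, and it ran from -0.01 to 0.26 over the alternatives, with no call. Between the hairpins the difference was -0.18 (edgeR adjusted p = 0.138), and it passed the test without batch 3 (-0.26, adjusted p = 0.00683), without control replicate 5 (adjusted p = 0.0383) and with an offset for GC content and length (-0.19, adjusted p = 0.0156), over a range from 0.00683 to 0.576. The predicted gene Gm38317 shares 6.48% of the 75-base exonic windows of Itgb5 and averaged 2.39 CPM in control, 4.11 CPM for shRNF185.1 and 4.15 CPM for shRNF185.3.

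Itgb6, the epithelial beta partner of the Itgav subunit, sits on the minus strand of chromosome 2, from 60598292 to 60722643 and was near the floor of detection, with 6 to 19 counts per library. It passed the filter with 8 libraries above 0.368 CPM where 6 were needed. Its lowest, median and highest levels were 0.209, 0.401 and 0.496 CPM in control, 0.286, 0.459 and 0.674 CPM for shRNF185.1, and 0.249, 0.288 and 0.457 CPM for shRNF185.3. The groups overlapped. As a log2 fold change this gave 0.34 with shRNF185.1 (95% interval -0.17 to 0.85, edgeR adjusted p = 0.321) and -0.25 with shRNF185.3 (-0.79 to 0.30, adjusted p = 0.536). Between the hairpins it differed by -0.59 (edgeR adjusted p = 0.148), and without batch 3 by -1.002, which passed the test (adjusted p = 0.0484, up to 0.66 over the alternatives). Itga8, the alpha subunit of the nephronectin receptor, on the minus strand of chromosome 2 (12106632 to 12301922), held 0 to 5 counts in any library and 14, 2 and 5 counts in all in control, shRNF185.1 and shRNF185.3. It did not pass the filter in any library, was not tested and has no fold.

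**Figure D3:**
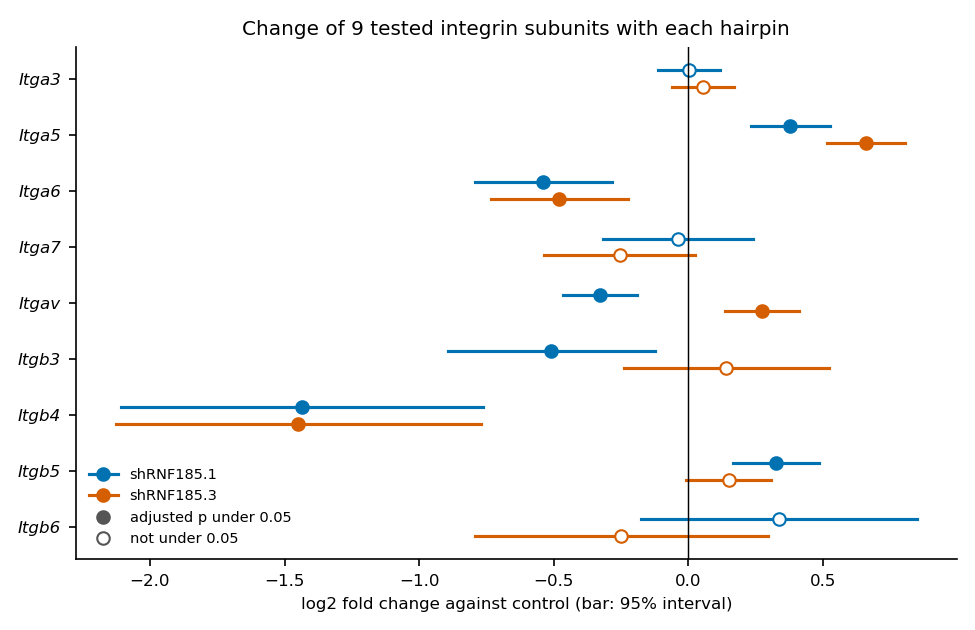
Log2 fold change of the tested members against control for shRNF185.1 and shRNF185.3, with 95% intervals, from the edgeR fit over all 18 libraries, filled where the adjusted p was under 0.05. Itgav lies at -0.33 with shRNF185.1 and 0.27 with shRNF185.3, and Itgb4 lies lowest with both.

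**Figure D4:**
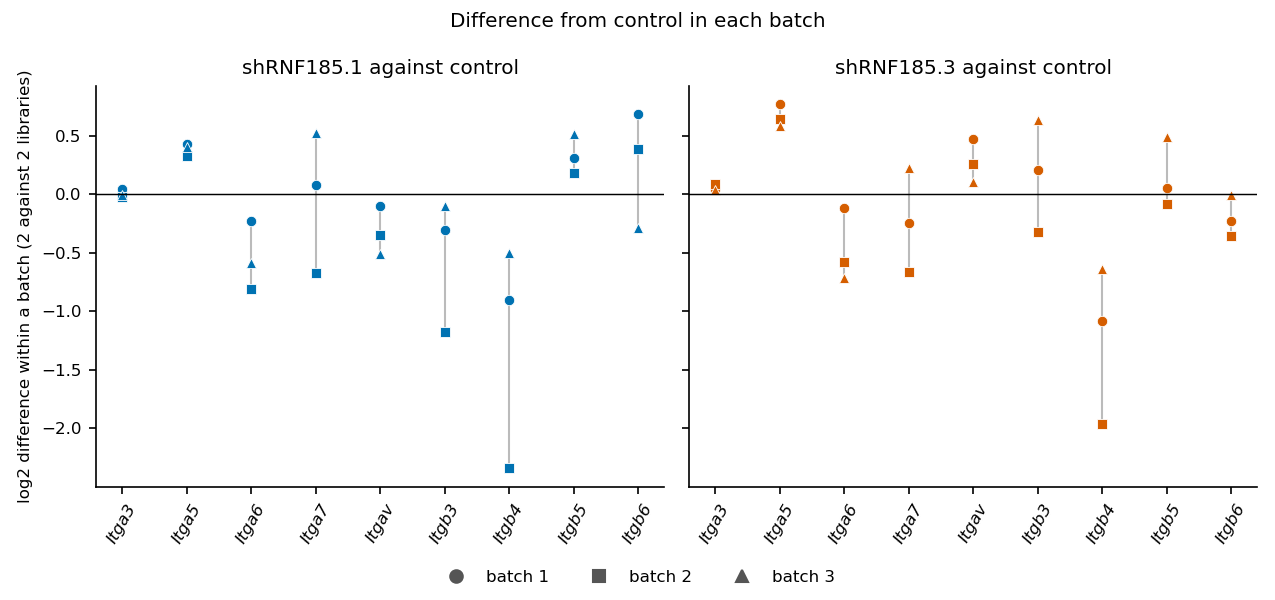
Log2 difference of each member from control within each of the 3 batches, 2 libraries a group and batch, for the 2 hairpins. Itga5 is above 0 in all 6 values, Itga6 and Itgb4 below 0 in all 6, and Itga7 on both sides of 0.

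Of the 9 tested members, 3 differed between the hairpins, all higher with shRNF185.3 (Itga5, Itgav and Itgb3), beside 14.7% of all genes tested, of which 7.72% were higher and 6.94% lower. Itgav and Itgb3, whose subunits pair in a vitronectin receptor, are both among these 3. Their log2 CPM had r = 0.582 over the 18 libraries and -0.098 after the group means were taken out. The other beta partners of Itgav among the members, Itgb5 and Itgb6, were lower with shRNF185.3 than with shRNF185.1 (-0.18 and -0.59). Neither was called (edgeR adjusted p = 0.138 and 0.148). Itgb8, a further beta partner of the Itgav subunit that is not among the members, averaged 28.3 CPM in control, 21.4 CPM for shRNF185.1 and 33.3 CPM for shRNF185.3. It fell with shRNF185.1 (-0.40, edgeR adjusted p = 0.0187) and was higher with shRNF185.3 than with shRNF185.1 (0.64, adjusted p = 0.00135), and is named after its values were seen.

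The balance of subunits was described by ratios of levels per kilobase within each library, with no test. The ratio of Itga5 to Itgav ran from 2.20 to 3.32 in control, from 4.37 to 5.77 with shRNF185.1 and from 3.60 to 3.95 with shRNF185.3. The groups did not overlap, nor did they for Itga5 alone, and no share over other gene pairs was computed. Itgb5 exceeded Itgb3 by a median ratio of 10.4 in control, 25.2 with shRNF185.1 and 11.7 with shRNF185.3. The ratio of Itga6 to Itga3 had a median of 0.140 in control, 0.0917 with shRNF185.1 and 0.0939 with shRNF185.3, with overlapping ranges.

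The partner Itgb1, which pairs with all the alpha subunits named above, averaged 825 ± 76.8 CPM in control, 884 ± 47.5 CPM for shRNF185.1 and 791 ± 57.5 CPM for shRNF185.3 (SD, n = 6 each). Its log2 fold change did not pass the test with shRNF185.1 (0.10, edgeR adjusted p = 0.248) or with shRNF185.3 (-0.06, adjusted p = 0.534). The change of Itgb1 with shRNF185.1 was called under 3 of the 16 alternatives, among them that without batch 3. There it was 0.20 (edgeR adjusted p = 0.042, from 0.03 to 0.757 over the alternatives). Of 16 other integrin subunits, 11 were tested. With shRNF185.1 2 rose and 4 fell, and with shRNF185.3 2 rose and 1 fell, with medians of -0.31 and 0.10. Of all genes tested, 28.9% and 27.3% were called with shRNF185.1 and shRNF185.3. Itga2b, the fibrinogen receptor subunit of platelets, averaged 2.53 CPM in control, 4.94 CPM for shRNF185.1 and 4.93 CPM for shRNF185.3. It rose by 0.96 on the log2 scale with each hairpin (edgeR adjusted p = 2.81e-06 and 2.9e-06). Itga4, a subunit of the receptor for VCAM-1 and fibronectin, averaged 13.7, 8.32 and 7.40 CPM in the same order. It fell by 0.71 with shRNF185.1 (edgeR adjusted p = 0.0367) and by 0.88 with shRNF185.3 (adjusted p = 0.013), with overlapping groups. Without batch 1 the changes in Itga4 were -0.43 and -0.49 and neither passed the test (edgeR adjusted p = 0.376 and 0.292, the highest over the alternatives, whose lowest were 0.00173 and 0.000805). The fall with shRNF185.1 lost its call under 8 of the 16 alternatives, among them those without batch 3, without control replicate 1 and without control replicate 5. That with shRNF185.3 lost its call under 3, those without batch 1, without batch 3 and with libraries summed per batch.

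The laminin chains are the ligands of the Itga3, Itga6 and Itga7 receptors, and the list held 11 genes, of which 9 were tested. With shRNF185.1 3 rose and 0 fell, and with shRNF185.3 5 rose and 1 fell, with medians of 0.08 and 0.46. The share called over all genes tested was 28.9% (14.6% higher, 14.3% lower) and 27.3% (14.2% higher, 13.1% lower). Lama4, a laminin alpha chain of mesenchymal and vascular basement membranes, averaged 16.01 CPM in control, 55.01 CPM for shRNF185.1 and 48.2 CPM for shRNF185.3. Its log2 rise was 1.78 with shRNF185.1 (edgeR adjusted p = 2.97e-08) and 1.59 with shRNF185.3 (adjusted p = 1.26e-07). Lamc1, the gamma chain of most laminins, rose by 0.74 and 0.52 from 275 CPM in control to 459 CPM and 393 CPM (edgeR adjusted p = 1.18e-10 and 1.15e-08). Lamb2 rose by 0.73 and 0.46, from 95.9 CPM in control to 159 CPM and 132 CPM (edgeR adjusted p = 1.73e-07 and 4.2e-05).

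Of 23 RGD ligands and their carriers, 15 were tested. With shRNF185.1 4 rose and 2 fell, and with shRNF185.3 6 rose and 1 fell, with medians of -0.01 and 0.13. The hairpins changed 28.9% and 27.3% of all genes tested at the same threshold. Fn1, which encodes fibronectin, averaged 2542 ± 392 CPM in control, 2521 ± 355 CPM for shRNF185.1 and 3368 ± 438 CPM for shRNF185.3 (SD, n = 6). It did not pass the test with shRNF185.1 (-0.01, edgeR adjusted p = 0.947) and rose with shRNF185.3 (0.41, adjusted p = 0.0108). The Fn1 rise with shRNF185.3 lost its call without batch 1 (0.32, edgeR adjusted p = 0.066) and without batch 3 (0.37, adjusted p = 0.112), over a range from 0.00234 to 0.112. Fbln5, an elastic fibre protein, averaged 3.03 CPM in control, 12.4 CPM for shRNF185.1 and 5.70 CPM for shRNF185.3, and rose by 2.03 and 0.92 (edgeR adjusted p = 9.44e-08 and 0.000694). Ltbp1, a carrier of latent TGF-beta, rose by 0.53 and 0.41 (edgeR adjusted p = 1.03e-05 and 0.000149), and Tnc, which encodes tenascin C, by 0.55 and 0.51 (adjusted p = 0.0118 and 0.019). Both calls of Tnc ended without batch 1 (0.38 and 0.57) and without batch 3 (0.49 and 0.35). Npnt, the nephronectin ligand of the receptor that contains the Itga8 subunit, fell by 2.55 and 1.98 on the log2 scale (edgeR adjusted p = 6.14e-09 and 9.91e-08), while its receptor gene Itga8 lay at or near the floor.

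**Figure D5:**
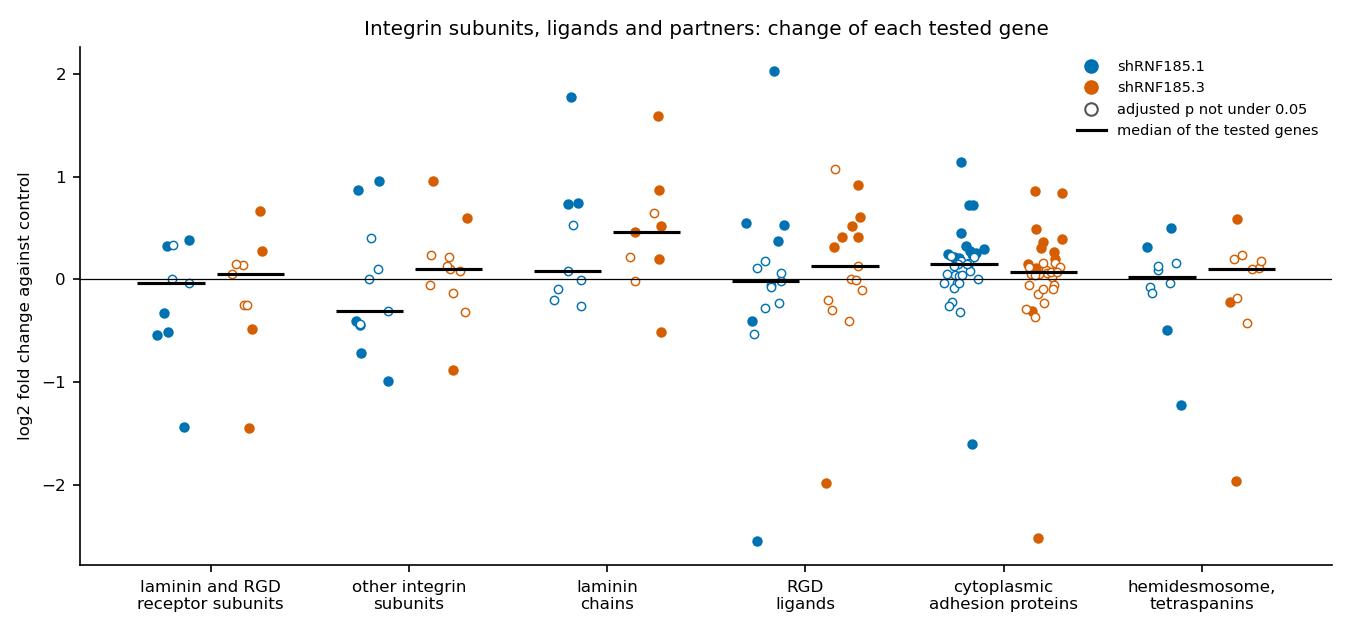
Log2 fold change of each tested gene against control, by list and hairpin, filled where the edgeR adjusted p was under 0.05, with a line at the median of the list. The lowest points are Npnt among the RGD ligands, Fermt1 among the cytoplasmic adhesion proteins and Tspan8 among the tetraspanins, and the highest are Fbln5 and Lama4.

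The cytoplasmic adhesion proteins, which carry signals from integrins to the actin skeleton, were a list of 34 genes, of which 33 were tested. With shRNF185.1 12 rose and 1 fell and with shRNF185.3 10 rose and 2 fell, with medians of 0.15 and 0.08. Beside these counts, 14.6% and 14.2% of all genes tested rose and 14.3% and 13.1% fell. Tgfb1i1, a paxillin relative also called Hic-5, averaged 8.78 CPM in control, 14.5 CPM for shRNF185.1 and 15.7 CPM for shRNF185.3, and rose by 0.72 and 0.84 (edgeR adjusted p = 0.000193 and 4.34e-05). Parvb, a parvin that links integrin-linked kinase to actin, rose by 0.72 and 0.49 (edgeR adjusted p = 0.00185 and 0.0257). The rise with shRNF185.3 in Parvb lost its call without batch 1 (0.31), without batch 3 (0.56), without control replicate 1 (0.39) and without control replicate 5 (0.46). Arhgef7, an exchange factor of focal adhesions, rose by 0.45 and 0.39 (edgeR adjusted p = 9.15e-07 and 4.47e-06). Zyx, which encodes zyxin, rose by 0.32 and 0.36, from 217 CPM in control to 271 CPM and 278 CPM (edgeR adjusted p = 0.000523 and 0.000178). Fermt1, which encodes the epithelial integrin activator kindlin-1, is named after its values were seen and averaged 2.64 CPM in control, 0.864 CPM for shRNF185.1 and 0.457 CPM for shRNF185.3. It fell by 1.60 and 2.52 (edgeR adjusted p = 0.00359 and 0.000157), on 6 to 142 counts per library.

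The list of hemidesmosome and tetraspanin genes, which also held Krt5, Krt14, Bcam and Dag1, had 12 genes, of which 10 were tested. With shRNF185.1 2 rose and 2 fell, and with shRNF185.3 1 rose and 2 fell, with medians of 0.03 and 0.10. The share called over all genes tested was 28.9% and 27.3%. Tspan8, a tetraspanin that associates with integrins, averaged 37.4 CPM in control, 16.1 CPM for shRNF185.1 and 9.63 CPM for shRNF185.3, and fell by 1.22 and 1.96 (edgeR adjusted p = 9.73e-05 and 7.73e-07). Plec and Dst, the linkers to keratin, rose with shRNF185.1 by 0.32 and 0.50 (edgeR adjusted p = 0.0149 and 0.00086), and neither passed the test with shRNF185.3 (0.24 and 0.20, adjusted p = 0.0661 and 0.154). Both are named after their values were seen. Without batch 1, the calls with shRNF185.1 and shRNF185.3 were 3 and 1 among the other integrins, 7 and 6 in the adhesion machinery and 2 and 1 among the hemidesmosome and tetraspanin genes, and 4 among the RGD ligands with shRNF185.3. Without batch 1, 15.5% and 14.9% of all genes tested were called with shRNF185.1 and shRNF185.3. Markers of epithelial and mesenchymal cells moved with the hairpins, as given above, and their relation to these lists was not tested.

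For each member with a mean of at least 1 CPM, the 3 genes whose log2 CPM followed it most closely over the 18 libraries were listed, with Pearson's r as a description among 11689 genes, all values coming from the same libraries and groups. Itga5 was closest to Cnn1 (r = 0.965), Lmcd1 (0.960) and Speg (0.959), which include a smooth muscle calponin, and Itga6 to Rab31 (0.949), Dpysl3 (0.937) and Ralgapb (0.935). For Itgav they were Gm14326 (0.947), Gm14002 (0.944) and Frk (0.940), for Itgb3 Usp22 (0.949), Lpin2 (0.940) and Cx3cl1 (0.935), and for Itgb5 Nfkb1 (0.947), Pml (0.933) and Smarcc2 (0.910). Itga7 was closest to Cish (0.930), Fah (0.926) and Wdr45 (0.921), and Itga3, the member that moved least, had the lowest best match, B4galt2 (0.761). Among the members themselves, Itga6 and Itgb4 had r = 0.804 over the 18 libraries and 0.539 after the group means were taken out. Itga5 and Itgb4 had -0.711 and -0.279. With the group means out, some pairs not named above as receptors had a higher r than Itga6 and Itgb4. Among them were Itgb3 and Itgb4 (0.748) and Itga7 and Itgb5 (0.708).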

How the data were processed

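Polyadenylated RNA of 18 libraries was read as single 75-base reads in a strand-specific protocol, per the labels' protocols. The submitters' processing notes name cutadapt 2.3, STAR 2.7.0d, RSEM 1.3.1 and mm10, with no role or order. The authors deposited expected counts after ComBat-Seq adjustment for batch, per the file names in the labels; whether that adjustment was told the groups is not given in the sources used here. Of these values 0.466% were not whole, and all were rounded. The planned test, written for whole numbers, was retained. The authors also deposited CPM, a normalised signal that equals the counts over an effective library size within a relative 1e-06; its columns sum to 969986 to 1026394, so it is no plain share.

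Counts were tested in R 4.3.3 with edgeR 4.0.16: TMM scaling, filterByExpr with a minimum count of 10, a mean per group over all 18 libraries with no covariate, the quasi-likelihood F test and Benjamini-Hochberg adjustment over 14309 genes. Intervals are 95%. Standard errors come from the fold change and F. Other runs used limma 3.58.1 and DESeq2 1.42.0. Identifiers with a symbol were 99.1%, and positions are GENCODE M21 on GRCm38. Of the scripts, only the edgeR test of shRNF185.1 against control was run on simulated counts, which held no batch effect.

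The members and lists were chosen with earlier results of these data known. The text names the members, Rnf185, Itgb1, Fn1 and, from each list, up to 4 genes that both hairpins moved the same way and that averaged at least 50 counts, ranked by the mean change; a gene outside this rule was chosen after its values were seen. The main fit did not treat same-numbered libraries as paired. Over 9671 genes, their deviations correlated from -0.628 to 0.705, with a mean of -0.0144. As the counts were already adjusted for batch, this cannot decide whether they are paired. The 45 pairs of libraries within a group differed by a chi-square of 7.64 to 84.4 per gene, so none looked like a duplicate. Differences in library totals between the groups did not pass a two-sided exact permutation test (adjusted p = 0.234, 0.234 and 0.738 over the 3 comparisons). Alternatives changed scaling, filter, test, unit, covariate, block, offset and libraries.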

Additional observations from a re-analysis of the deposited data

Results flagged for a closer look

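In Itgav, control replicate 1 stood apart from the other control libraries, at a log2 CPM of 7.30 where the next was 7.64. In Itgb5, control replicate 5 stood apart in the same way, at 7.60 where the next was 7.96. These were 2 of 27 groups of 6 libraries examined, where chance alone gives about 1.35. Without control replicate 1, the log2 fold change of Itgav was -0.39 with shRNF185.1 and 0.21 with shRNF185.3, both called by edgeR (adjusted p = 1.91e-05 and 0.00427). Without control replicate 5, that of Itgb5 was 0.26 with shRNF185.1 and still called by edgeR (adjusted p = 0.00274), and with shRNF185.3 it was 0.08 in place of 0.15, called in neither case (adjusted p = 0.315 and 0.152).

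The hairpins differed in 3 members, with shRNF185.3 above shRNF185.1 by 0.28 in Itga5, 0.60 in Itgav and 0.65 in Itgb3 on the log2 scale. The change of Itga7 differed between batches, with an edgeR adjusted p of 0.0108 for the group by batch interaction over 14309 genes.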

How the results depend on the processing

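The fold changes of the members, Rnf185, Itgb1, Fn1 and the genes named by rule, and the counts of calls, were recomputed under 14 alternatives. Added after seeing the data were fits without control replicate 1 and without control replicate 5. Itgb8, Fermt1, Plec, Dst, the markers, the ratios, the correlations and the interaction test were not recomputed singly. Over members, comparisons and alternatives, 548 values stayed on their side of the threshold, 19 lost their call, 8 gained one and 1 reversed with a call. Of the 548, 18 had the other sign, all in results that were not called, such as Itga3 with shRNF185.1. The reversal was Itga7 with shRNF185.1, at 0.29 without batch 2 (edgeR adjusted p = 0.031), against -0.04 with all batches. The cause was not tested. Itga7 with shRNF185.3 gained a call with the GC and length offset (-0.32) and without batch 3 (-0.46). Between hairpins, 1 member remained called without batch 1 and 1 without batch 2, against 3, and without batch 3 Itgb3 lost its call while Itgb5 (-0.26) and Itgb6 (-1.002) gained one. Over the 5 lists of partners, ligands and adhesion genes, 32, 31 and 36 calls with shRNF185.1, shRNF185.3 and their mean became 20, 16 and 19 without batch 1. Over all genes, calls of 4141, 3906, 4701 and, between hairpins, 2098 became 2207, 2120, 2672 and 753 without batch 1. Without batch 2 they were 5119, 3849, 5411 and 1208, and without batch 3 those of shRNF185.3 and of the mean were 2501 and 3106. With batch as a covariate, calls over all genes were 3559, 3260, 4031 and 1631 in the same order. Higher genes made 62.4% of calls between hairpins without batch 1, against 52.7%. With the replicate block 6, 4, 4 and 3 members were called, as without it, and 31, 29 and 35 list genes; only 2 of 18 libraries correlated best with their own number in another group. Counts per library were lowest in Itga8, Itgb6 and Itgb4, which limits their precision.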
